A study of Chlorocebus aethiops with 12 samples.

Results

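The early-response genes of the EGR, NR4A, IER and MYC families were followed in COS-1 cells, an established fibroblast-like line from the kidney of an African green monkey. They were taken as the probes assigned to 10 listed human transcript accessions, which stand for 9 genes. Of these, 8 accessions were analysed, out of 32379 read on the arrays, and they cover EGR1, EGR2, EGR3, NR4A1, NR4A2, IER2, IER3 and MYC. The 2 listed accessions of NR4A3 had no probe assigned to them on these arrays and so were not analysed here. Before treatment the cells received either the glucocorticoid receptor (GR) and MDFIC, a MyoD family inhibitor domain protein, or GR alone by transfection. The groups were GR+MDFIC cells given 100 nM dexamethasone (Dex), GR+MDFIC cells given vehicle, GR cells given 100 nM Dex and GR cells given vehicle, with 3 biological replicates each. All groups therefore carried transfected GR, were kept in medium with 10% charcoal-stripped serum from the day after transfection, and were treated for 6 h starting 48 h after transfection. Dex is a synthetic glucocorticoid that activates GR, and the comparisons address the response to it and the effect of MDFIC on that response.

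Immediate early genes are switched on within minutes of a growth factor, serum or stress signal, through transcription factors that are already present in the cell, and need no new protein for it. Many of them encode transcription factors that carry the signal to later genes, and their RNA is short-lived, so its level follows the signal closely. Steroid-bound GR acts both by binding DNA itself and by interfering with other transcription factors.

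The arrays were one-colour Agilent arrays whose probes were designed for human transcripts, and a monkey transcript is read only as far as it matches the human probe. Levels are given as log2 of the processed signal minus the 75th percentile of the same array, so a level of 0 is that percentile, and levels of different genes are not compared with each other. Across the 12 arrays 70.3% to 75.2% of spots were well above background. The arrays lay on 3 slides. Slide 1 held GR Dex replicate 1 and all GR vehicle arrays, slide 2 held GR+MDFIC vehicle replicates 1 and 2 and GR Dex replicates 2 and 3, and slide 3 held all GR+MDFIC Dex arrays and GR+MDFIC vehicle replicate 3. Slide 3 was read on another scanner and was dimmer, with a 75th percentile that averaged 386 in signal units, where slide 2 averaged 868 and slide 1 averaged 850. Differences were tested in limma over 23756 accessions, with Benjamini-Hochberg adjusted p under 0.05 as the threshold for a call. The files name transcripts by accession alone, so the transfected GR and MDFIC, the markers of the cell line and the genome positions of the probes were not looked up as a check of the labels. The RNA is that of whole cultures, in which fewer responding cells and less RNA per cell cannot be told apart.

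With Dex, 5 of the 7 early genes that could be tested fell in GR+MDFIC cells and the same 5 fell in GR cells: EGR1, EGR2, IER2, IER3 and MYC. IER3 fell to 43.8% of its vehicle level in GR+MDFIC cells and to 50.1% in GR cells. Of the 5 MYC fell least, to 84.1% and 84.8%, and its call depends on the fit. In GR cells the calls of all 5 depended on the background correction, and in GR+MDFIC cells those of EGR2, IER2 and MYC did. No early gene rose. NR4A1 did not pass the test, EGR3 was too close to background for a firm value, and no NR4A2 reading was well above background. Over all accessions tested, 6.94% were called lower with Dex in GR+MDFIC cells and 2.77% in GR cells. The median log2 difference of the 7 genes was -0.85 in GR+MDFIC cells and -0.67 in GR cells, where the median over all accessions was -0.007 and 0.0074. The value of -0.85 is that of EGR3 itself, so the gap between these medians rests on that gene. MDFIC itself moved no early gene past the threshold, with Dex or with vehicle, where 5.54% and 0.884% of all accessions were called. For no early gene did the test find that MDFIC altered the Dex effect, where the share was 0.0589%. With shares this low, the lack of calls among 7 genes does not set them apart from other transcripts.

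**Figure D1:**
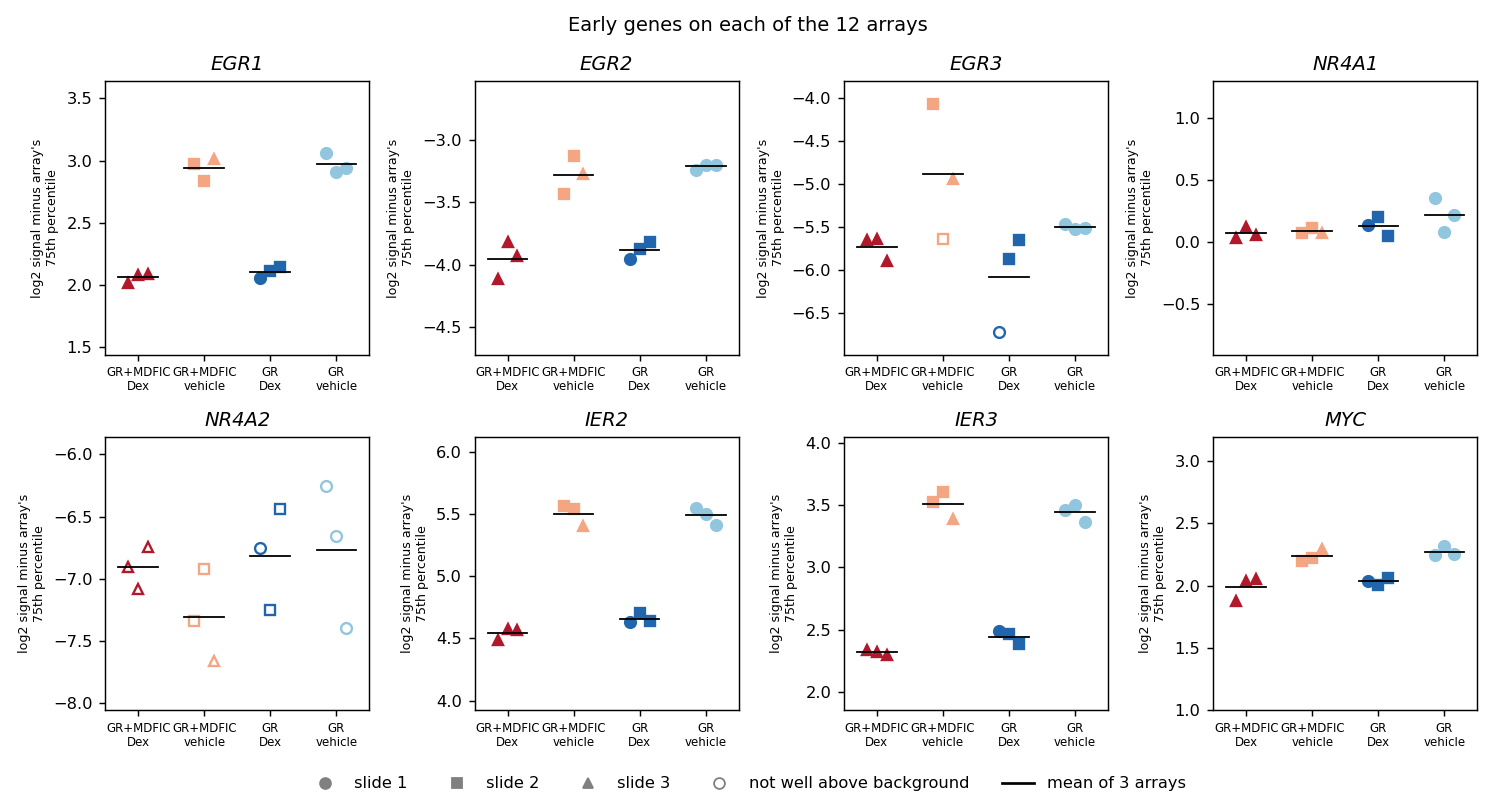
Levels of the 8 early genes with a probe on each of the 12 arrays (y axis, log2 signal minus the array's 75th percentile; x axis, the 4 groups), with the slide as the marker shape, the mean of 3 arrays as a line and open markers where a probe was not well above background. In the panels of EGR1, EGR2, IER2, IER3 and MYC all Dex arrays lie below all vehicle arrays, whereas the NR4A1 groups overlap and every NR4A2 marker is open.

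EGR1 (NM_001964, probe A_23_P214080) encodes a zinc finger transcription factor that is among the first to answer MAP kinase signalling through serum response elements. In GR+MDFIC cells its level was 2.02, 2.08 and 2.09 on the Dex arrays, against 2.98, 2.84 and 3.01 on the vehicle arrays. On the GR arrays it was 2.05, 2.11 and 2.15 with Dex, against 3.06, 2.91 and 2.94 with vehicle. Every Dex array was thus lower than every vehicle array by far more than the distance between replicates. The log2 difference was -0.88 ± 0.06 (SE) in GR+MDFIC cells (limma, Benjamini-Hochberg adjusted p = 1.56e-05), which leaves 54.4% of the vehicle level (95% interval 49.6% to 59.7%). In GR cells it was -0.87 ± 0.06 (SE), with an adjusted p of 2.31e-05 in limma and 54.9% of the vehicle level (95% interval 50.0% to 60.2%). The fall can be read within slides: on slide 3 the unscaled processed signal was 1479, 1600 and 1760 with Dex, against 3104 with vehicle, in GR+MDFIC cells. On slide 1 it was 3317 with Dex, against 6767, 6893 and 6723 with vehicle, in GR cells.

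EGR2 (NM_000399, probe A_23_P46936), a relative of EGR1 best known for myelination by Schwann cells and for hindbrain patterning, was read at a much dimmer probe. Its level in GR+MDFIC cells was -4.12, -3.82 and -3.93 with Dex, against -3.43, -3.13 and -3.27 with vehicle. In GR cells the Dex arrays gave -3.96, -3.87 and -3.82, against -3.24, -3.20 and -3.20 on the vehicle arrays. The groups did not overlap in either kind of cell. The log2 difference was -0.68 ± 0.09 (SE) in GR+MDFIC cells (limma, Benjamini-Hochberg adjusted p = 0.0012) and -0.67 ± 0.09 (SE) in GR cells (limma, Benjamini-Hochberg adjusted p = 0.00163), or 62.5% and 62.7% of the vehicle level. Although well above background on all 12 arrays, this probe had a processed signal of only 21.0 to 27.2 on the GR+MDFIC Dex arrays, and 39.9 on the vehicle array of the same slide. Under the normexp background correction with an offset of 50 and a floor, the log2 difference was -0.03 in GR+MDFIC cells (limma, Benjamini-Hochberg adjusted p = 0.852) and -0.38 in GR cells (limma, adjusted p = 0.0541). The median over all accessions was then 0.119 in GR+MDFIC cells and -0.0028 in GR cells.

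EGR3 (NM_004430, probe A_23_P216225), whose protein is known from muscle spindle development and T-cell activation, lay at the edge of detection, and its probe was well above background on 10 of the 12 arrays. In GR+MDFIC cells it read -5.65, -5.64 and -5.90 with Dex, against -4.07, -5.64 and -4.94 with vehicle. In GR cells it read -6.72, -5.87 and -5.66 with Dex, against -5.46, -5.52 and -5.51 with vehicle. The arrays where it was not well above background were GR+MDFIC vehicle replicate 2 and GR Dex replicate 1. The log2 differences of -0.85 ± 0.37 (SE) in GR+MDFIC cells and -0.59 ± 0.37 (SE) in GR cells missed the threshold (limma, adjusted p = 0.15 and 0.461). GR+MDFIC vehicle replicate 1 was the highest array, with a processed signal of 49.0 against 15.2 for the other GR+MDFIC vehicle array of that slide, and without it the difference in GR+MDFIC cells was -0.44. Without GR Dex replicate 1 the difference in GR cells was -0.27.

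The NR4A genes encode orphan nuclear receptors, NR4A1 (Nur77), NR4A2 (Nurr1) and NR4A3 (NOR1), which act without a known hormone ligand and are controlled mostly through their own rapid transcription. NR4A1 (NM_002135, probe A_23_P128230) was well above background on all 12 arrays. Its level was 0.03, 0.12 and 0.05 in GR+MDFIC cells with Dex, against 0.07, 0.11 and 0.07 with vehicle. Among GR cells it was 0.14, 0.20 and 0.05 with Dex, against 0.35, 0.08 and 0.22 with vehicle. The groups overlapped in both kinds of cell. The log2 difference was -0.02 (95% interval -0.17 to 0.14) in GR+MDFIC cells (limma, Benjamini-Hochberg adjusted p = 0.895) and -0.09 (95% interval -0.24 to 0.07) in GR cells (limma, Benjamini-Hochberg adjusted p = 0.564). A fall to the levels that EGR1, IER2 or IER3 reached lies outside both intervals, since their lower ends correspond to 88.8% and 84.4% of the vehicle level. NR4A2 (NM_006186, probe A_23_P131208) had a processed signal between 1.91 and 10.9 and was not well above background in any sample, so no fold can be given for it.

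IER2 and IER3 are short early-response genes, the first encoding a nuclear protein and IER3 (IEX-1) a protein tied to cell survival and to NF-kB and ERK signalling. IER2 (NM_004907) had 2 probes, and the brighter, A_23_P153905, gave 4.48, 4.58 and 4.57 in GR+MDFIC cells with Dex, against 5.56, 5.54 and 5.40 with vehicle. In GR cells that probe gave 4.63, 4.71 and 4.64 with Dex, against 5.55, 5.50 and 5.41 with vehicle. The Dex and vehicle arrays were clearly apart in both. The log2 difference was -0.96 ± 0.06 (SE) in GR+MDFIC cells (limma, Benjamini-Hochberg adjusted p = 7.42e-06) and -0.83 ± 0.06 (SE) in GR cells (limma, Benjamini-Hochberg adjusted p = 2.39e-05). This corresponds to 51.5% and 56.3% of the vehicle level. The other IER2 probe, A_32_P36235, fitted on its own, gave -0.90 ± 0.07 (SE) and -0.73 ± 0.07 (SE) in the same cells, so both probes fell (limma, Benjamini-Hochberg adjusted p = 3.97e-05 and 0.000232).

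IER3 (NM_003897, probe A_23_P42257) showed the largest called fall among the 7 genes in each kind of cell. Its level was 2.34, 2.32 and 2.29 in GR+MDFIC cells with Dex, against 3.53, 3.61 and 3.39 with vehicle. The GR arrays gave 2.49, 2.46 and 2.38 with Dex, against 3.46, 3.504 and 3.37 with vehicle. Replicates differed by far less than the groups. The log2 difference was -1.19 ± 0.06 (SE) in GR+MDFIC cells (limma, Benjamini-Hochberg adjusted p = 3.63e-06) and -0.998 ± 0.06 (SE) in GR cells (limma, Benjamini-Hochberg adjusted p = 1.45e-05). Among the 23756 accessions IER3 had the 513th lowest log2 difference in GR+MDFIC cells and the 118th lowest in GR cells. By the same order EGR1 was the 901st and 187th, and IER2 the 781st and 204th. On slide 3 the unscaled processed signal of IER3 was 1846, 1894 and 2029 with Dex, against 4030 with vehicle, and on slide 1 it was 4472 with Dex, against 8925, 10390 and 9013 with vehicle.

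MYC (NM_002467, probe A_23_P215956), the basic helix-loop-helix transcription factor that drives growth and ribosome production, moved by much less. Its level was 1.88, 2.04 and 2.06 in GR+MDFIC cells with Dex, against 2.20, 2.22 and 2.30 with vehicle. The GR arrays gave 2.03, 2.01 and 2.06 with Dex, against 2.24, 2.32 and 2.25 with vehicle. The groups did not overlap in either kind of cell, but lay much closer together than those of IER3. The log2 difference was -0.25 ± 0.05 (SE) in GR+MDFIC cells (limma, Benjamini-Hochberg adjusted p = 0.0166) and -0.24 ± 0.05 (SE) in GR cells (limma, Benjamini-Hochberg adjusted p = 0.0302). In a fit that adds slide as a fixed block the differences were -0.31 and -0.24 and neither passed (limma, Benjamini-Hochberg adjusted p = 0.103 and 0.194), whereas with slide as a random block both passed (adjusted p = 0.0211 and 0.0447). In GR cells the call was also lost on leaving out any 1 of the 6 GR arrays (limma, Benjamini-Hochberg adjusted p from 0.0546 to 0.106), and with the fit limited to the groups compared it was lost in both (adjusted p = 0.111 in GR+MDFIC cells and 0.0574 in GR cells).

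The main MYC probe was printed in 10 spots on each array, which shows how far the reading itself scatters. Within an array the spots had an SD between 0.03 and 0.08 on the log2 scale. Taken spot by spot, all 10 were lower with Dex in GR+MDFIC cells, by differences from -0.30 to -0.20, and all 10 were lower in GR cells, from -0.29 to -0.20. Spots of one array share its RNA and are not replicates of the treatment, so they carry no test. A second MYC probe, A_24_P38363, was not well above background in any sample, with a processed signal between 2.34 and 14.4, and gives no value.

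**Figure D2:**
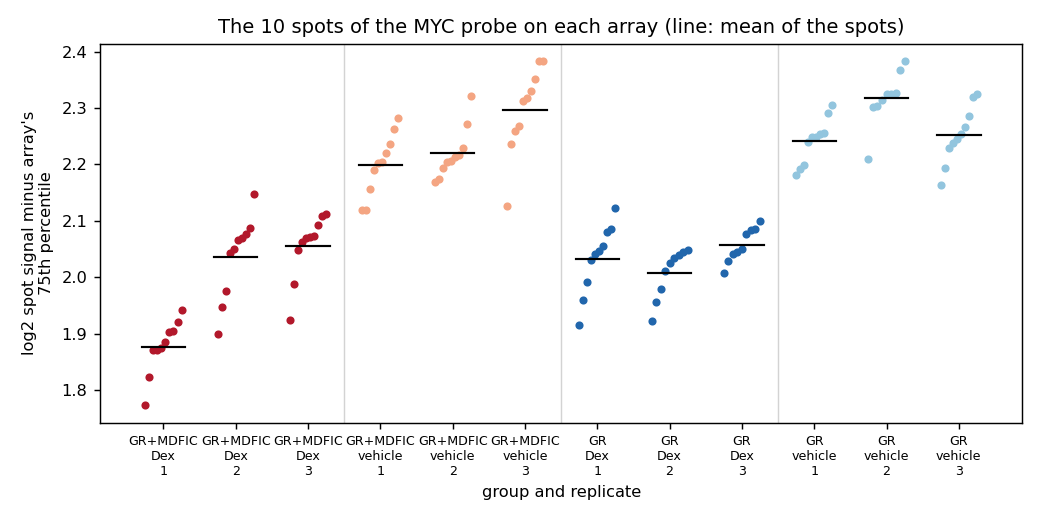
Log2 signal minus the array's 75th percentile (y axis) of the spots of the main MYC probe, sorted within each array, for each group and replicate (x axis), with the mean of an array's spots as a line. The array means lie between 1.88 and 2.06 with Dex and between 2.20 and 2.32 with vehicle, and spots of one array differ by up to about the same amount as the groups.

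Leaving aside which test is used, all Dex arrays were below all vehicle arrays for 5 of the 7 genes in GR+MDFIC cells, against 16.2% of all accessions, and for 6 of the 7 in GR cells, EGR3 included, against 11.8%. EGR3 was separated there only narrowly, with a highest level of -5.66 with Dex and a lowest of -5.52 with vehicle. Its GR Dex replicate 1 was not well above background. Because the Dex and vehicle arms of each comparison lay partly on different slides, the differences were also read within the slide that holds both arms. On slide 3, with a single vehicle array, the log2 difference in GR+MDFIC cells was -0.95 for EGR1, -0.68 for EGR2, -0.86 for IER2, -1.07 for IER3 and -0.31 for MYC. On slide 1, with a single Dex array, the difference in GR cells was -0.92 for EGR1, -0.75 for EGR2, -0.86 for IER2, -0.96 for IER3 and -0.24 for MYC. The falls were thus of similar size without any comparison between slides. A fit over all 12 arrays with slide as a fixed block gives these same differences, and in it EGR1, EGR2, IER2 and IER3 passed in both kinds of cell (limma, Benjamini-Hochberg adjusted p from 0.00033 to 0.0396). Fits on the 4 arrays of a slide alone had 2 residual degrees of freedom and called 0.0884% of all accessions on slide 3 and 0.0253% on slide 1, and none of the 5 genes. In them EGR1, IER2 and IER3 had an adjusted p from 0.0566 to 0.0914 in limma.

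**Figure D3:**
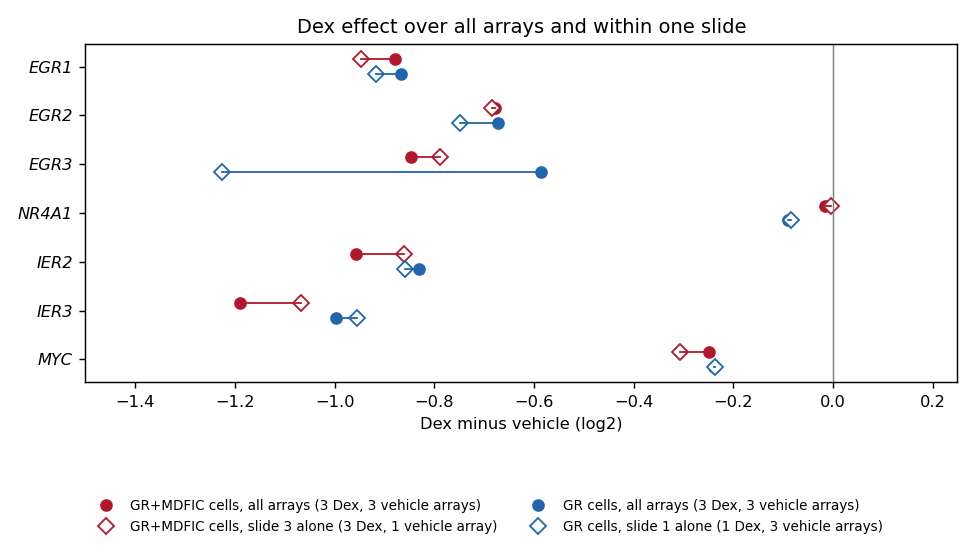
Log2 difference of Dex minus vehicle (x axis) for the 7 genes tested (y axis), over all arrays (filled circles) and within the slide that holds both arms (open diamonds), in GR+MDFIC and GR cells. The diamonds of EGR1, EGR2, IER2, IER3 and MYC lie within 0.13 of their circles, and EGR3 in GR cells moves to -1.23 on slide 1, where its single Dex array was not well above background.

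**Figure D4:**
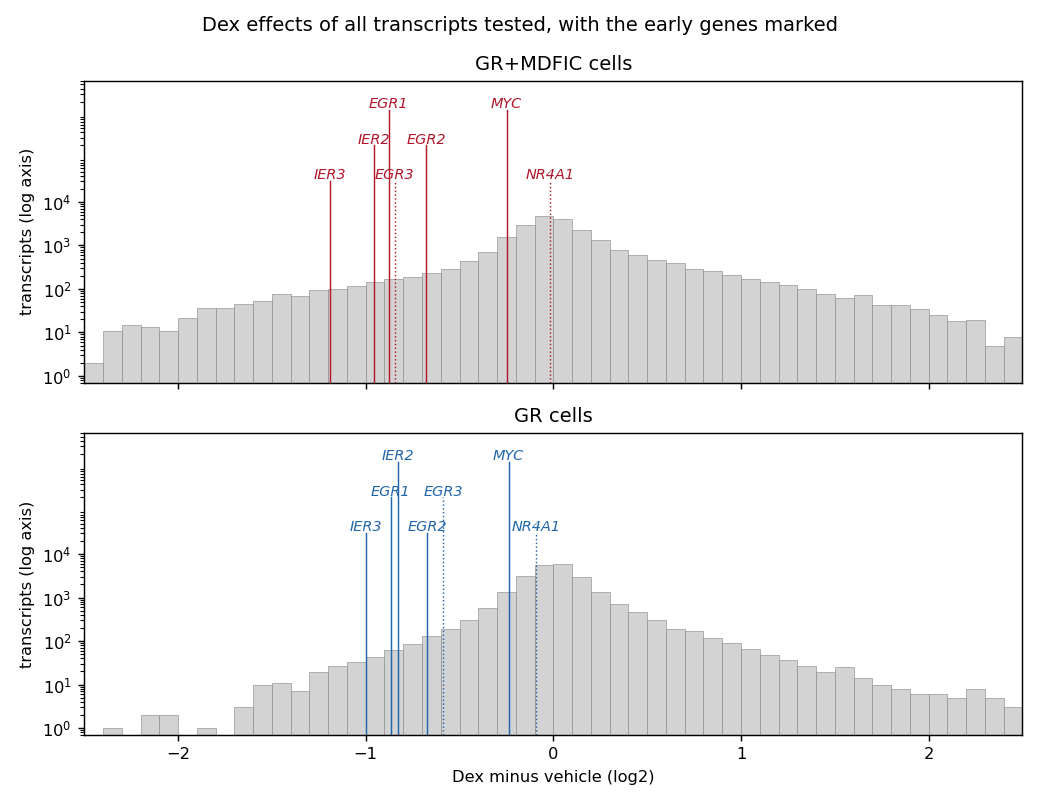
Number of transcripts (y axis, log scale) by their log2 difference of Dex minus vehicle (x axis) in GR+MDFIC cells and in GR cells, with the 7 genes tested marked by lines, solid where called and dotted where not. The marks of IER3, IER2, EGR1 and EGR2 stand in the lower tail, MYC lies on the shoulder and NR4A1 near the centre; 45 transcripts in GR+MDFIC cells and 22 in GR cells lie outside the axis.

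The early genes were next compared between GR+MDFIC and GR cells, both with Dex. None of the 7 passed the test, and none had an unadjusted p under 0.05 in limma, where 5.54% of all accessions were called. That share was 0.202% with slide as a fixed block, 0.48% with a random block, and from 0.379% (without GR Dex replicate 3) to 13.1% (without GR+MDFIC vehicle replicate 3) on leaving out 1 array. The log2 difference was -0.072 for EGR2 (95% interval -0.275 to 0.13) and -0.061 for NR4A1 (95% interval -0.216 to 0.094). For EGR3 it was 0.355, with a 95% interval from -0.477 to 1.186, too wide to say how its levels compare. Under normexp with a floor EGR2 and EGR3 were called, at 0.483 and 0.881, where 49.7% of all accessions were called. In the fit reported the means were 2.06 ± 0.04 in GR+MDFIC cells and 2.11 ± 0.05 in GR cells for EGR1, and 1.99 ± 0.10 and 2.03 ± 0.02 for MYC (SD, n = 3 each). IER2 averaged 4.54 ± 0.05 in GR+MDFIC cells and 4.66 ± 0.04 in GR cells (SD, n = 3 each), and IER3 2.32 ± 0.02 and 2.44 ± 0.06. For these 2 genes all GR+MDFIC arrays were below all GR arrays, while 32.2% of all accessions had groups that do not overlap. The log2 differences of -0.12 for IER2 and -0.13 for IER3 missed the threshold (limma, adjusted p = 0.244 and 0.255). Once slide was added as a block they turned to 0.02 and 0.08. The 2 groups share no slide. The block links them through slide 2 and through GR+MDFIC vehicle replicate 3, the single vehicle array on slide 3.

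With vehicle, MDFIC likewise moved none of the 7 genes past the threshold, none had an unadjusted p under 0.05 in limma, and all groups overlapped. Over all accessions 0.884% were called and 22.1% had groups that do not overlap. The share called was 0.299% with slide as a fixed block, and from 0.345% (without GR vehicle replicate 3) to 2.38% (without GR+MDFIC vehicle replicate 3) on leaving out 1 array. The log2 differences ran from -0.13 for NR4A1 to 0.07 for IER3, with 95% intervals that reach no lower than -0.29 and no higher than 0.21, apart from EGR3. EGR3 gave 0.62 (95% interval -0.22 to 1.45) and 0.21 without GR+MDFIC vehicle replicate 1, its highest array. As with Dex, the groups share no slide, and with slide as a block EGR3 turned to -0.31. That link runs through GR Dex replicate 1 on slide 1 and through slide 2. EGR3 was not well above background on GR Dex replicate 1 or on GR+MDFIC vehicle replicate 2, which lay on slide 2.

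The difference between the Dex effects in GR+MDFIC and in GR cells was tested in its own right. None of the 7 genes passed and none had an unadjusted p under 0.05 in limma, against 0.0589% of all accessions called. On leaving out GR+MDFIC vehicle replicate 3 the share called was 7.56%, and still none of the 7 genes passed. The difference was -0.01 (95% interval -0.20 to 0.18) for EGR1, -0.01 (95% interval -0.29 to 0.28) for EGR2 and -0.01 (95% interval -0.19 to 0.16) for MYC. The EGR2 difference depended on the background correction: it was 1.19 under normexp and 0.36 under normexp with a floor, both outside this interval and neither called (limma, Benjamini-Hochberg adjusted p = 0.32 and 0.304). The median over all accessions shifted too, to 0.484 under normexp and 0.104 with the floor, from -0.0087 in the fit reported. IER3 came nearest to the threshold, at -0.19 (95% interval -0.39 to 0.01), with a larger fall in GR+MDFIC cells (limma, Benjamini-Hochberg adjusted p = 0.52). Within slides that difference was -0.11. IER2 gave -0.13 (95% interval -0.31 to 0.05) over all arrays and -0.001 within slides. NR4A1 gave 0.07 (95% interval -0.15 to 0.29), and EGR3 had an interval from -1.44 to 0.92, too wide to say how its Dex effects compare.

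**Figure D5:**
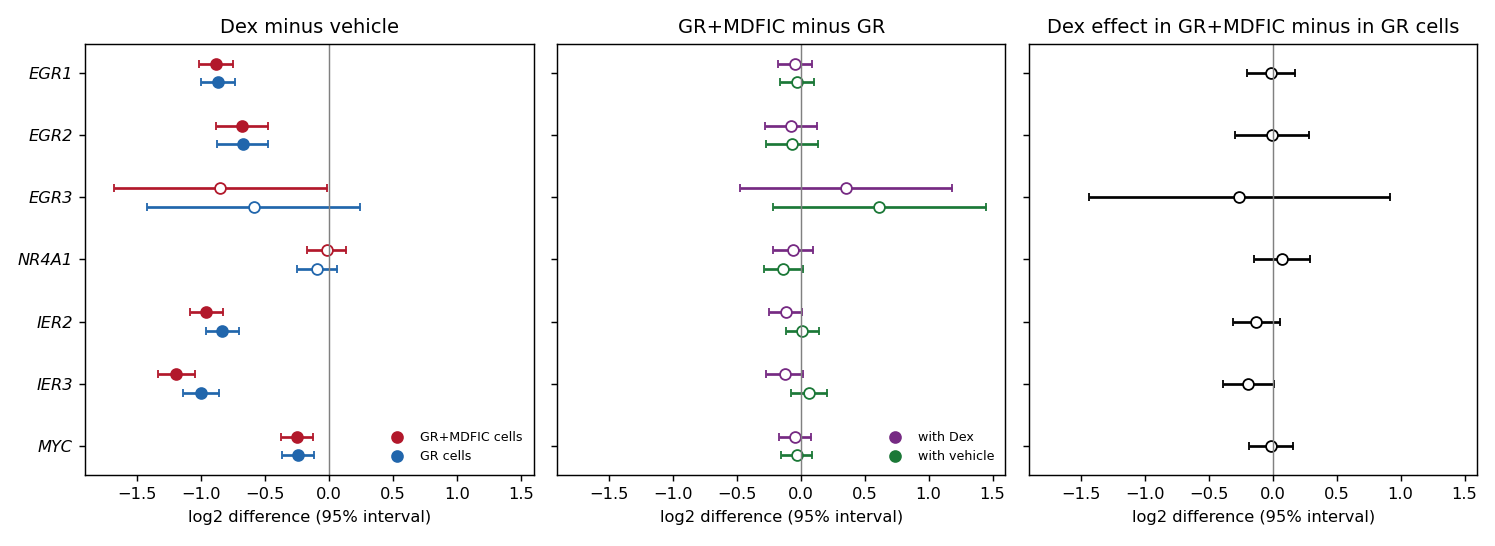
Log2 differences with 95% intervals (x axis) of the 7 genes tested (y axis) for Dex minus vehicle, for GR+MDFIC minus GR cells and for the difference of the Dex effects, with filled markers where the adjusted p was under 0.05. Filled markers occur in the Dex panel alone, for EGR1, EGR2, IER2, IER3 and MYC, and all intervals of the other panels include 0.

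The transcripts most like these genes were sought over the 12 arrays among the other accessions starting with NM, as a description without a test, since the 12 points fall into 4 groups. For IER3 the highest Pearson correlation was 0.994 (Spearman 0.937), with NM_004083, which changed by -1.26 with Dex in GR+MDFIC cells and by -1.03 in GR cells. For EGR1 it was 0.993 (Spearman 0.902), with NM_004496, which changed by -0.66 and -0.64 in the same cells. The files do not pair these accessions with gene names. For IER2, EGR2 and MYC the highest correlation was 0.991, 0.978 and 0.979, and for NR4A1 it was 0.925. IER2 and IER3 followed each other at 0.995, and at 0.647 once the mean of each group was taken away. Between pairs of these genes such values within groups ran from -0.61, for EGR1 with IER3, to that 0.647.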

How the data were processed

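RNA from 12 samples was labelled with Cy3 and hybridised to one-colour Agilent arrays, per the labels. The deposited values are linear-scale intensities, the processed signal of Agilent Feature Extraction, with background subtracted and spatial trends removed, per the columns and statistics of the file headers, which record no normalization between arrays. The submitters' processing notes name version 12 and the headers 12.0.0.7 (slides 1 and 2) and 12.0.3.1 (slide 3). The deposited flags (other values, 0 or 1) mark spots above background, saturated or outlying, per the file headers.

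Processed signals were converted to log2, and the array's 75th percentile over 43376 non-control spots was subtracted. Flagged outliers were left out (34 missing values in the accessions tested, and 3 single MYC spots); no spot of these genes was saturated. Spots of a probe were averaged, and a probe counted as well above background where over 0.5 of its spots were. A probe was kept if well above background on all 3 arrays of a group, with at least 2 unflagged arrays in each. The kept probe with the highest mean stood for its accession, which gave 23756 accessions. EGR3 passed through the GR+MDFIC Dex and GR vehicle groups. A group-means model over all 12 arrays was fitted in limma 3.58.1 (R 4.3.3; 8 residual degrees of freedom), with two-sided tests, after a check on simulated data. Array number limits the precision.

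The genes and lists were chosen with earlier results of these data known, and the rule was to name every listed gene. The further gene lists planned needed symbols, which the files do not give, and were not used. The planned mean spot signal was replaced by the median for normexp. No probe sequence was used here.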

Additional observations from a re-analysis of the deposited data

How the results depend on the processing

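The 7 genes in 5 comparisons gave 961 values under alternatives. The call and direction held, or an uncalled value stayed within its interval, in 907. In 33 a call was lost, in 1 gained and in 2 a direction reversed, and 18 uncalled values moved outside their interval. Among all of them 42 sign changes concerned values called in neither fit. Of the 7 genes, 5 were called with Dex in each kind of cell. Leaving out 1 array gave 5 of 7 in GR+MDFIC cells and 4 to 5 in GR cells, and 0 in the other comparisons. Of all accessions 7.64% to 26.6% were then called with Dex in GR+MDFIC cells and 4.52% to 7.5% in GR cells. The arrays of slide 3 left out gave 5 in GR cells, against 5.44% of all accessions. Slide as a fixed block gave 4 in each kind of cell, against 3.41% of all accessions in GR+MDFIC cells and 3.56% in GR cells. Within slide 3 alone 0 were called in GR+MDFIC cells and within slide 1 alone 0 in GR cells, where 0.0884% and 0.0253% of all accessions were called, with 2 residual degrees of freedom. Quantile and median scaling, the other filters, the mean of an accession's probes, kept outlier spots, a random slide block and the deposited series table, identical to the scanner files, gave the same counts within 1.5 times. Labels share replicate numbers but same-numbered arrays did not deviate together (correlations from -0.243 to 0.144). With a replicate block 5 were called in each kind of cell and 0 otherwise.

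Normexp alone gave 2 called genes in GR+MDFIC cells (0.32% of all accessions) and 0 in GR cells (0.126%), and turned EGR2 with Dex in GR+MDFIC cells to 0.685 (limma, Benjamini-Hochberg adjusted p = 0.227). The normexp median over all accessions for that comparison was 0.4395. The fitted values of single arrays follow. The background mean fitted by normexp was -575 on GR+MDFIC Dex replicate 3 and -79 on GR vehicle replicate 3, where the lowest spot minus background was -59480 and -1124. Such spots were then raised to the array's 0.1 percentile, an alternative chosen after seeing the data. With it 4 were called in GR+MDFIC cells (EGR1, IER2, IER3 and MYC) and 3 in GR cells (EGR1, IER2 and IER3). Over all accessions 10.6% and 3.44% were called in these 2 comparisons. Between GR+MDFIC and GR cells with Dex 2 were called, EGR2, which turned to 0.483, and EGR3 at 0.881. In that comparison 49.7% of all accessions were called and the median over all accessions was 0.152 (the cause was not tested). Over all accessions the count called with Dex in GR+MDFIC cells was 3217 in the fit reported, from 1815 to 6311 without 1 array and 809 with the slide block. In GR cells it was 1704, from 1073 to 1781, and 845. For MDFIC in vehicle it was 210, from 82 to 565, and 71, and for MDFIC with Dex 1317, from 90 to 3106, and 48. The difference of the Dex effects gave 14, from 2 to 1797, and 20. The highest count came without GR+MDFIC vehicle replicate 3 in each of the 5 comparisons. With the compared groups only, the counts were 1243 and 1085 with Dex in GR+MDFIC and GR cells, and 2259 and 33 between GR+MDFIC and GR cells given Dex and given vehicle.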

Other observations

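Slide 2 held GR Dex replicates 2 and 3 beside GR+MDFIC vehicle replicates 1 and 2. In this pairing the Dex treatment and MDFIC differ together, so on its own it answers no comparison of the design. It enters the MDFIC comparisons of the fit with slide as a fixed block. On that slide GR Dex minus GR+MDFIC vehicle was -0.78 for EGR1, -0.57 for EGR2, -0.88 for IER2, -1.15 for IER3, -0.18 for MYC and 0.04 for NR4A1 on the log2 scale, each from 2 arrays against 2 and without a test.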
